A study of Mus musculus with 8 samples.

Results

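The Krüppel-like factors are transcription factors that bind GC-rich and CACCC sequences through zinc fingers, and several are known for holding lymphocytes in a resting state. The genes described here are 9 of them, Klf2, Klf3, Klf4, Klf6, Klf7, Klf9, Klf10, Klf11 and Klf13, taken by mouse symbol from the 37583 gene identifiers of the count tables. All 9 were among the 13964 genes that passed the filter on low counts. In the files they are ENSMUSG00000055148 (Klf2, chromosome 8), ENSMUSG00000029178 (Klf3, chromosome 5), ENSMUSG00000003032 (Klf4, chromosome 4), ENSMUSG00000000078 (Klf6, chromosome 13), ENSMUSG00000025959 (Klf7, chromosome 1), ENSMUSG00000033863 (Klf9, chromosome 19), ENSMUSG00000037465 (Klf10, chromosome 15), ENSMUSG00000020653 (Klf11, chromosome 12) and ENSMUSG00000052040 (Klf13, chromosome 7).

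RNA was sequenced from splenic B cells of C57BL/6 (B6) mice, in 3 libraries of naive cells, 3 of cells after 3 days with CpG ODN1668, and 2 of cells given that CpG culture with LPS, PMA and ionomycin for the final 5 hours (here TLR). CpG ODN1668 is a synthetic DNA that activates TLR9, LPS activates TLR4, PMA activates protein kinase C and ionomycin raises cell calcium. All groups share the strain and the spleen as source, and the labels call both cultured populations Bregs. They do not say whether naive cells were cultured, so CpG and time in culture cannot be told apart, and they do not say which of the 4 agents acted in the TLR group. Nor do they say whether replicates came from separate mice or cultures. The p-values therefore set group differences against the spread between these libraries, estimated over all 3 groups together.

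Gene totals ran from 15804311 to 20069272 counts per library, and 1 count was worth 0.0498 to 0.0633 CPM, the unit used here for a gene's share of its library's counts. Replicate 1 of each group carried another library-name prefix than the rest, and multi-mapped reads took 37.5% to 50.2% of its libraries, against 14.7% to 21.5% elsewhere. The 10 B cell markers summed to 23368 to 24166 CPM in naive, 16099.5 to 24464 CPM in CpG and 9656 to 9887 CPM in TLR libraries, none of them at 0, and 9 of 10 were lower in TLR than in CpG, after 3 of 10 at the CpG step. The 12 macrophage markers summed to 1304, 319.8 and 174 CPM in naive replicates 1 to 3, to 18.1 to 39.6 CPM in CpG and to 13.1 and 18.7 CPM in TLR libraries, and 12 of 12 were lower with CpG. The 12 T cell markers summed to 263 to 299 CPM in naive, 138 to 191 CPM in CpG and 12.9 and 13.6 CPM in TLR libraries, and the 9 natural killer cell markers to 16.8 to 79.5, 1.74 to 2.99, and 1.25 and 1.76 CPM. With CpG 10 of 12 and 9 of 9 of these were lower, and at the second step 1 of 12 and 0 of 9. With a filter at a mean of 1 CPM, which left fewer T cell markers to test, 3 of them were called lower with CpG. Between 1 and 6 T cell markers and 3 and 7 natural killer cell markers were at 0 in each CpG library. In bulk RNA, fewer cells of a type and less RNA per cell cannot be told apart, and CPM are shares of a library, not amounts per cell.

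Vertebrate Krüppel-like factors fall into classes by what their N-terminal part recruits: activators such as Klf2, Klf4, Klf6 and Klf7, repressors that bind the corepressor CtBP such as Klf3, and repressors that bind Sin3 such as Klf9, Klf10, Klf11 and Klf13. In resting lymphocytes Klf2 is known for supporting genes of egress and homing, among them the sphingosine-1-phosphate receptor gene S1pr1, and antigen receptor signals are known to switch it off. Its transcription is driven by MEF2 factors downstream of the kinase ERK5, and in T cells also depends on FOXO1, which PI3K signals keep out of the nucleus.

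At the first step, CpG against naive, 6 of the 9 genes were lower (Klf2, Klf3, Klf4, Klf6, Klf7 and Klf13) and 0 were higher, by edgeR's quasi-likelihood test at a Benjamini-Hochberg adjusted p below 0.05. Of all tested genes 21.9% were lower and 23.5% higher. Libraries of the 6 lower genes did not overlap between these groups, as was so for 27.7% of genes on the lower side and 28.3% on the higher. At the second step, TLR against CpG, 4 of 9 were lower (Klf2, Klf3, Klf6 and Klf11) and 1 was higher (Klf7), against 19.8% and 19.0% of all genes. Without overlap, 5 were below and 2 above (30.1% and 29.2% of genes). Across both, TLR against naive, 6 were lower and 1 (Klf9) was higher, against 29.7% and 31.6%, and the same 7 did not overlap (38.3% of genes below and 39.8% above). The median log2 fold change of the 9 genes was -0.87, -0.15 and -2.41 in these comparisons, and that of all genes was 0.01, -0.02 and 0.01. Klf2, Klf3 and Klf6 were lower at both steps, as were 7.03% of tested genes. The comparisons share libraries, so their values for a gene are not independent.

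**Figure D1:**
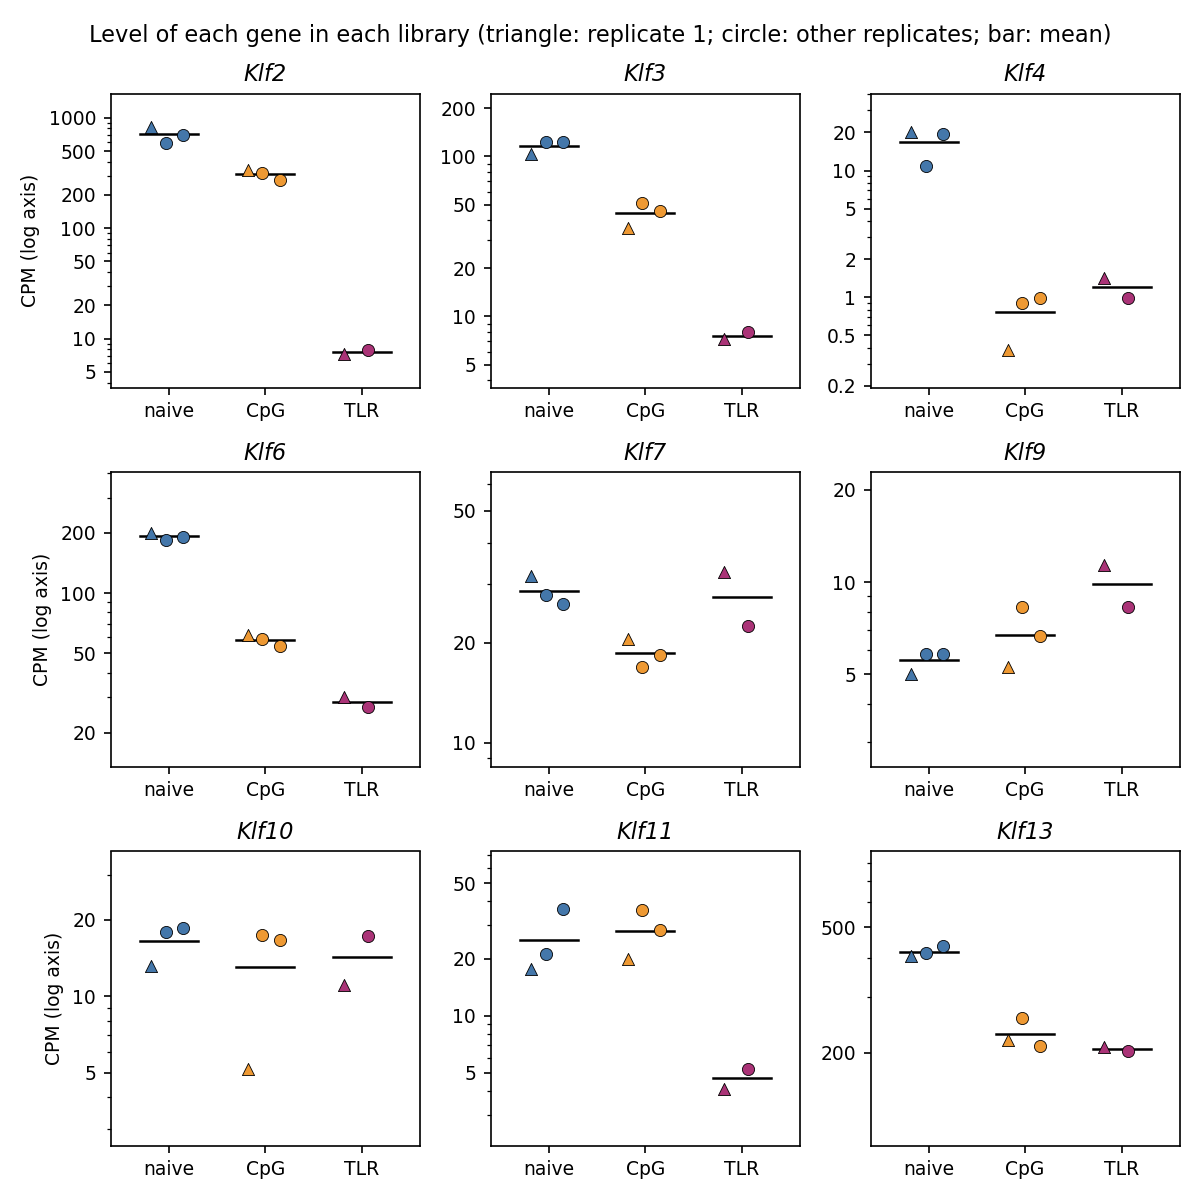
CPM of each of the 9 genes (log axis) in every library of the naive, CpG and TLR groups, with bars at the group means, triangles for replicate 1 and circles for the other replicates. Klf2, Klf3 and Klf6 step down at both steps without overlap, Klf4 and Klf13 are below naive from CpG on, and Klf11 steps down only in the 2 TLR libraries.

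Klf2, an activator, had the largest change of the 9 over the whole course. Its level was 829.7, 589 and 701 CPM in naive libraries (replicates in order), 338, 319 and 272 CPM in CpG libraries, and 7.19 and 7.95 CPM in TLR libraries, from 127 and 154 counts. The groups did not overlap at either step. Klf2 fell by 1.19 ± 0.15 (SE) on the log2 scale with CpG, or 2.28-fold (adjusted p = 0.000202), and by 5.35 ± 0.22, or 40.8-fold, at the second step (adjusted p = 2.67e-06). That second change ranked 29 from the lowest among the 13964 tested genes. Within the 2 name prefixes the log2 differences were -1.29 and -1.13 with CpG, and -5.55 and -5.20 at the second step. Over the whole course Klf2 was 93.2-fold lower (adjusted p = 1.50e-07), and its second change lay below its first (difference -4.16 ± 0.27, adjusted p = 1.12e-05, in a test added after the data were seen). B cell markers moved with the group as well: the surface marker Ms4a1 (CD20) went from 1995 ± 503 CPM in CpG to 52.4 and 76.6 CPM in TLR libraries. The T cell marker sum, given above, also stepped down in the order of the groups, as Klf2 did. Of its 12 markers, though, 10 were called lower with CpG and only 1 at the second step. The part of B cell or T cell markers in the Klf2 result was not tested.

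Klf3, the CtBP-dependent repressor, followed the same order of groups at lower levels. Naive libraries held 103, 122 and 123 CPM, CpG libraries 35.5, 50.9 and 45.6 CPM, and TLR libraries 7.19 and 8.00 CPM. No library of one group reached the range of the next. The change was -1.40 ± 0.15 with CpG (adjusted p = 7.03e-05) and -2.53 ± 0.19 at the second step (adjusted p = 1.26e-05), and the second lay below the first (difference -1.14 ± 0.27, adjusted p = 0.0115). Klf6 is an activator known as an early-response gene. Its levels were 201, 184 and 191 CPM in naive, 61.6, 58.9 and 54.3 CPM in CpG and 30.1 and 27.0 CPM in TLR libraries, again without overlap. Klf6 fell by 1.72 ± 0.10 with CpG (adjusted p = 2.84e-06) and by 1.03 ± 0.12 at the second step (adjusted p = 0.000122). Here the first change was the larger, by 0.69 ± 0.18 (adjusted p = 0.0194), a difference not called without CpG replicate 2 or 3 or TLR replicate 1 (adjusted p = 0.0578 to 0.0753).

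Klf13, a Sin3-dependent repressor known in T cells as an activator of the chemokine gene Ccl5, came after Klf2 in naive libraries. It held 405, 416 and 435 CPM there, 219.8, 258 and 210.0 CPM in CpG and 209 and 203 CPM in TLR libraries. Naive libraries were all above the others, and the TLR libraries lay just below the lowest CpG library. Klf13 fell by 0.87 ± 0.11 with CpG (adjusted p = 0.000235). Its second change of -0.15 (95% interval -0.43 to 0.13) was not called (adjusted p = 0.363).

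Promoter windows show what the start sites of the 4 most abundant of these genes in naive libraries hold, the 3 that fell at both steps and Klf13, which fell at the first only. Each is the RefSeq window of GRCm38.p6, from 250 bases before the transcription start to 50 after, at chr8:72318812-72319111 (plus strand) for Klf2, chr5:64803271-64803570 (plus strand) for Klf3, chr13:5861239-5861538 (plus strand) for Klf6 and chr7:63938866-63939165 (minus strand) for Klf13. They are written 5′ to 3′, with capitals for matches on either strand to the MEF2 motif, the GC box GGGCGG, the CACCC box and the CCAAT box, of which the GC and CACCC boxes overlap at 1 place each in Klf3 and Klf13.
Klf2: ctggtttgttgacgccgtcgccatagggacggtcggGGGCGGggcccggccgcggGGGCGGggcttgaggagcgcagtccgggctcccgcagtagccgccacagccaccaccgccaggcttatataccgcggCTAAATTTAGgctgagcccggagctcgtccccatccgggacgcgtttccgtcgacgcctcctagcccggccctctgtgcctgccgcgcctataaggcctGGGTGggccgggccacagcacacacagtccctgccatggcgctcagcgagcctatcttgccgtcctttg
Klf3: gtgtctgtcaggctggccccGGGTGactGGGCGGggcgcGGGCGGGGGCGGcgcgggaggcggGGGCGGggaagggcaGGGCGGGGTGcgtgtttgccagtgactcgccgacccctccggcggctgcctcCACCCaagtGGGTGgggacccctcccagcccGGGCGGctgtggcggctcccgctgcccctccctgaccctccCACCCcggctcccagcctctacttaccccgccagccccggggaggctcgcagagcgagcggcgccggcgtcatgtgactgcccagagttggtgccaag
Klf6: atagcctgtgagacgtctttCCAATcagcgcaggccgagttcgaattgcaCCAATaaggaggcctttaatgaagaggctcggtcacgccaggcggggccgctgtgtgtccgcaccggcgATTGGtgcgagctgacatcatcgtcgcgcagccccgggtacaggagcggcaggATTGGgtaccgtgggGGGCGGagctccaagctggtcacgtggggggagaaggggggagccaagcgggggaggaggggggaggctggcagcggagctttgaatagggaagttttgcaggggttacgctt
Klf13: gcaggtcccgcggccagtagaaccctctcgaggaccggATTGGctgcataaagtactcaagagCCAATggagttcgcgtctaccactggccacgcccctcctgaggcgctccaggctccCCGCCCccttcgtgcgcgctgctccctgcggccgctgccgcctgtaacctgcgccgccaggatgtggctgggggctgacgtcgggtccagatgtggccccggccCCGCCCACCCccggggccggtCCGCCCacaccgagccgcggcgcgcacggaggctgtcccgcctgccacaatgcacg

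Of the 9 genes 8 had a window, and Klf10 did not. A match to the MEF2 motif, CTAAATTTAG, lay in the Klf2 window, 118 to 109 bases before the start, and in no other of the 8. In all, 3.19% of 32851 windows held that motif. GC boxes were in 7 of 8 windows (35.7% of all), CACCC in 5 of 8 (57.5%) and CCAAT in 4 of 8 (37.4%). The GC content of the 8 ran from 58.3% to 77.7%, against a median of 52.7%. The FOXO motif GTAAACA and the AP-1 motif TGANTCA each had a match in Klf9 alone (3.65% and 7.81% of all windows), and the serum response element had a match in 0 of 8 (1.63%). These are matches of letters and were not tested for binding.

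**Figure D2:**
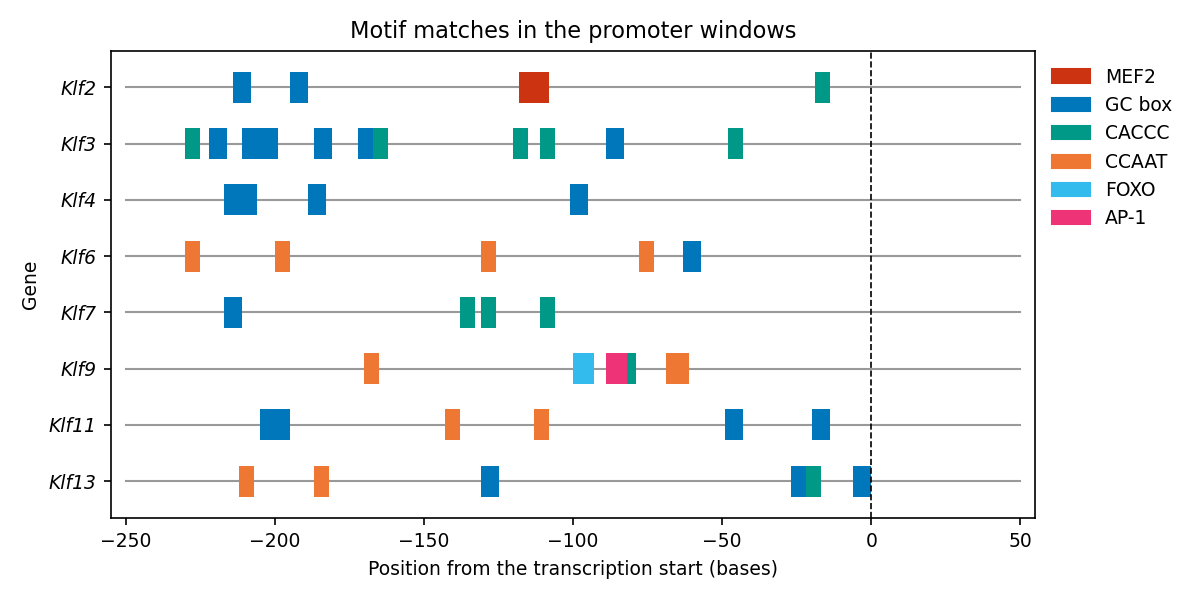
Motif matches in the promoter windows of 8 genes, by position from the transcription start in bases, colored by motif. The MEF2 match stands in Klf2 alone, at 118 bases before the start, and Klf9 alone holds the FOXO and AP-1 matches.

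Klf4 and Klf7, the remaining activators, behaved differently from each other. Klf4, known as a pluripotency factor and as a brake on B cell proliferation, was measured at 20.3, 10.8 and 19.4 CPM in naive libraries and at 0.387, 0.908 and 0.982 CPM with CpG, from 6, 17 and 18 counts. The TLR libraries held 1.42 and 0.981 CPM, so they overlapped CpG while both cultured groups were far below naive. Klf4 fell by 4.44 ± 0.39 with CpG, or 21.6-fold (adjusted p = 2.81e-05), and its second change of 0.63 (95% interval -0.38 to 1.64) was not called (adjusted p = 0.305). The 2 changes differed by 5.07 ± 0.75 (adjusted p = 0.00101). Naive replicate 2 held the lowest Klf4. Among naive libraries, the summed markers of natural killer cells (79.5, 16.8 and 71.1 CPM in replicates 1 to 3), dendritic cells (70.5, 30.0 and 38.9 CPM), erythroid cells (55.1, 4.66 and 10.8 CPM) and platelets (20.7, 7.61 and 11.7 CPM) were also lowest there. Those of macrophages were lowest in replicate 3 (1304, 319.8 and 174 CPM) and those of T cells in replicate 1 (263, 264 and 299 CPM). The 24 immediate early genes listed below summed to 3236, 2936 and 4750 CPM in naive replicates 1 to 3, so they too were lowest in replicate 2. Among them were Fos (187, 53.5 and 259 CPM), Fosb (43.1, 6.31 and 143 CPM) and Dusp1 (48.5, 15.6 and 58.1 CPM), while Btg2 was lowest in replicate 1 (418, 479 and 530 CPM). In the fit with only the libraries of the common name prefix the first Klf4 change was -3.99 (adjusted p = 0.00111). Neither the part of other cell types in the naive Klf4 level nor its relation to immediate early genes was tested.

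Klf7, best known from neurons, gave 31.7, 27.8 and 26.1 CPM in naive, 20.5, 16.9 and 18.4 CPM in CpG, and 32.6 and 22.5 CPM in TLR libraries. CpG libraries were below all others, and the TLR libraries spanned the naive range. It fell by 0.62 ± 0.17 with CpG (adjusted p = 0.0134) and rose by 0.56 ± 0.18 at the second step (adjusted p = 0.0349), and these changes differed by 1.18 ± 0.30 (adjusted p = 0.0179). Without CpG replicate 2 the first change lost its call (-0.54, adjusted p = 0.0502), and the second lost it without CpG replicate 2 or 3 (adjusted p = 0.0912 and 0.0732) or TLR replicate 1 (0.28, adjusted p = 0.361). The difference lost its call on leaving out any 1 of these 3 libraries (adjusted p = 0.0537 to 0.0716). Because counting ignored strand and 39.4% of the exon bases of Klf7 are also covered by genes of the opposite strand, reads of both cannot be told apart there.

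The other Sin3-dependent repressors were not called with CpG. Klf11 counts came to 17.7, 21.0 and 36.6 CPM in naive libraries, 19.8, 35.9 and 28.4 CPM with CpG, and 4.13 and 5.27 CPM in TLR libraries. The CpG libraries lay within the naive range, and both TLR libraries were far below them. The first change was 0.16 (95% interval -0.49 to 0.81, adjusted p = 0.679) and the second -2.58 ± 0.37, or 5.96-fold lower (adjusted p = 0.000537). The difference between the 2 changes was called (-2.74 ± 0.53, adjusted p = 0.00450).

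Klf10, induced early by TGF-beta, was not called in any comparison. Its levels were 13.2, 17.8 and 18.5 CPM in naive, 5.16, 17.4 and 16.6 CPM in CpG and 11.1 and 17.3 CPM in TLR libraries. Replicate 1, the one with the other name prefix, was the lowest of each group. Within that prefix the log2 differences were -1.35 with CpG and 1.10 at the second step, and within the other -0.10 and 0.02. The changes of -0.33 (95% interval -1.20 to 0.53) and 0.12 (-0.85 to 1.09) do not bound either change closely. Klf9 was the only one of the 9 called higher in TLR than in naive libraries. Its levels were 5.00, 5.81 and 5.85 CPM in naive, 5.29, 8.28 and 6.66 CPM in CpG and 11.4 and 8.31 CPM in TLR libraries, and the TLR libraries were above all others. The rise was 0.82 ± 0.26 (adjusted p = 0.0193), which lost its call without TLR replicate 1 (0.59, adjusted p = 0.169) and with only the common-prefix libraries (0.51, adjusted p = 0.126). Neither single step of Klf9 was called (adjusted p = 0.359 and 0.127). In all, the change at the second step differed from the first in 7 of the 9 genes: it was lower for Klf2, Klf3 and Klf11, as for 16.2% of tested genes, and higher for Klf4, Klf6, Klf7 and Klf13, as for 10.0%. The difference for Klf13 (0.72 ± 0.20, adjusted p = 0.0271) was not called without naive replicate 2 or 3, CpG replicate 3 or either TLR library (adjusted p = 0.0579 to 0.0921).

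**Figure D3:**
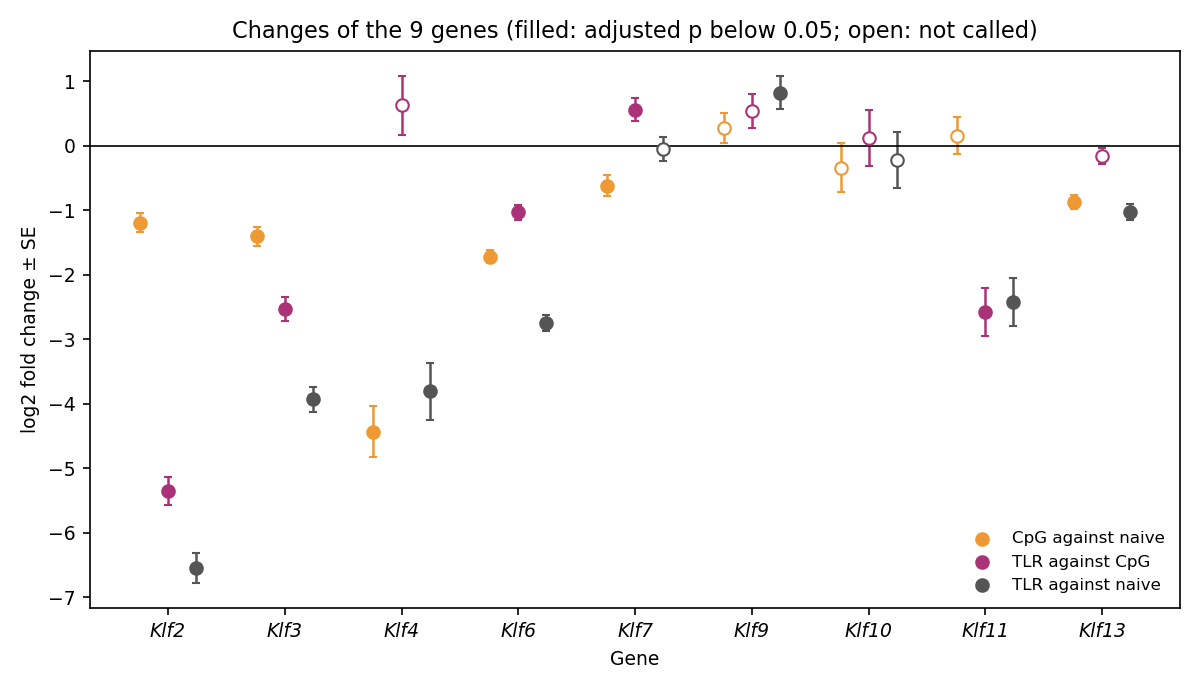
Log2 fold change ± SE of each gene in the 3 comparisons, with filled points for an adjusted p below 0.05 and open points for the rest. Klf2 has its larger change at the second step, Klf4 at the first, and Klf11 only at the second, while Klf9 lies above 0 in all 3.

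The balance among the 9 genes shifted with Klf2. Divided by exon length, Klf2 was highest in naive libraries (382 ± 65.3 CPM per kb, SD, n = 3) and CpG libraries (168 ± 18.6, n = 3), but below Klf13 and Klf6 in TLR libraries (4.10 ± 0.29, n = 2). Klf13 was the highest there, at 27.4 ± 0.50 CPM per kb, after 55.6 ± 2.05 in naive and 30.4 ± 3.36 in CpG libraries. Klf2 made up 74.4% ± 3.14 of the summed level per kb in naive, 73.2% ± 2.96 in CpG and 8.38% ± 0.74 in TLR libraries, while Klf13 went from 11.0% ± 1.57 and 13.3% ± 1.01 to 55.9% ± 0.064. Klf6, Klf7, Klf9, Klf10 and Klf4 also took larger average shares in TLR than in CpG libraries, with 13.3%, 6.91%, 4.17%, 6.96% and 0.801%. Their shares grew in a smaller sum: the 9 genes together held 512 ± 66.4, 229 ± 19.9 and 48.9 ± 0.85 CPM per kb in the 3 groups.

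**Figure D4:**
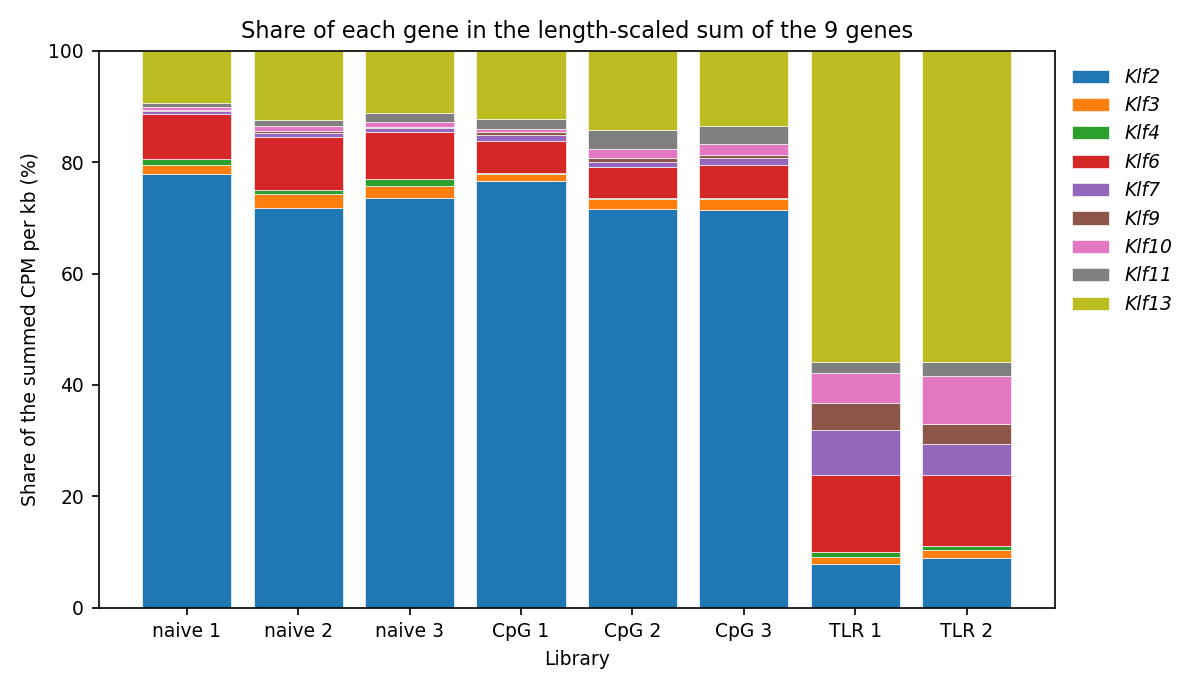
Share of each gene in the summed CPM per kb of the 9 genes, as stacked bars that reach 100%, 1 bar per library. Klf2 fills 71.4% to 77.9% of every naive and CpG bar, and Klf13 fills 55.9% of both TLR bars.

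Below these leaders the order per kb was close. In naive libraries Klf6 (43.7) and Klf3 (10.3) followed, and then Klf11, Klf4, Klf10 and Klf7 (5.79 to 3.51 on average), each overlapping its neighbour, with Klf9 lowest at 1.15 CPM per kb. In CpG libraries the order after Klf2 and Klf13 was Klf6, Klf11, Klf3, Klf10, Klf7, Klf9 and Klf4, where Klf3 overlapped Klf10 and Klf10 overlapped Klf7. In TLR libraries it was Klf13, Klf6, Klf2, Klf10, Klf7, Klf9, Klf11, Klf3 and Klf4, where Klf2 overlapped Klf10 and Klf10 overlapped Klf7. With the length of the longest coding transcript in place of all exon bases, Klf3 and Klf11 changed places in both cultured groups and Klf2 and Klf10 in the TLR group.

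Counts in the gene lists below stand beside the shares of all tested genes. With CpG 21.9% of these were lower and 23.5% higher. The shares were 19.8% and 19.0% at the second step, and 29.7% and 31.6% in TLR against naive. Of 17 other genes of the Krüppel-like and SP family, 8 could be tested, and the other 9 had at most 36 counts over all libraries. With CpG 4 fell and 0 rose (median -0.54): Klf16, Sp1, Sp2 and Sp4. Sp1, the widely expressed GC-box activator, fell from 256 ± 21.4 to 178 ± 22.2 CPM (-0.52 ± 0.12, adjusted p = 0.00702). At the second step 2 fell and 1 rose (median -0.49), counts near the shares of all genes. The riser was Klf16, a Sin3-binding relative, from 41.3 ± 2.98 to 61.2 and 66.9 CPM (0.63 ± 0.13, adjusted p = 0.00445). Klf12, which binds CtBP as Klf3 does, and Sp3 fell, but both calls were lost without CpG replicate 2 or either TLR library (adjusted p = 0.0723 to 0.224), and that of Sp3 also without CpG replicate 3 (adjusted p = 0.0982). The first-step calls of Klf16 and Sp4 were lost without naive replicate 3 (adjusted p = 0.0613) and naive replicate 2 (adjusted p = 0.0632) respectively. Sp3 was not called at the first step (-0.42, adjusted p = 0.0563) but was called lower in 10 of 15 alternatives, among them the replicate block (adjusted p = 0.00685) and DESeq2 (adjusted p = 0.029).

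Genes upstream of Klf2, a list of the ERK5, MEF2 and PI3K-FOXO routes, were mixed at the first step and mostly lower at the second. Of 15 tested, 4 rose and 7 fell with CpG (median -0.15), 1 rose and 10 fell at the second step (median -0.61), and 4 rose and 10 fell overall (median -1.37). Mef2c, the MEF2 factor needed for B cell proliferation after receptor signals, fell from 588 ± 21.4 to 329 ± 24.6 CPM with CpG and stood at 141 and 201 CPM in TLR libraries. Foxo1 was not called with CpG (370 ± 32.3 and 342 ± 59.3 CPM, adjusted p = 0.591) and fell at the second step to 96.0 and 129 CPM (-1.60 ± 0.19, adjusted p = 0.000175). Pik3ip1, an inhibitor of PI3K, fell from 64.1 ± 12.4 to 10.2 and 10.8 CPM at that step (-2.61 ± 0.24, adjusted p = 3.71e-05), and Inpp5d, which encodes the phosphatase SHIP1, from 247 ± 15.9 to 100.2 and 104 CPM (-1.27 ± 0.12).

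The genes that rose with CpG in this list were Map2k5, Mapk7 (ERK5), Mef2a and Akt1, named after their values were seen. Mapk7 went from 39.7 to 49.6 CPM on average (0.32, adjusted p = 0.0343), a call lost in 8 of 15 alternatives (adjusted p = 0.0537 to 0.118): without any 1 naive library or CpG replicate 1, with only the common-prefix libraries, with RLE factors, with no filter and with DESeq2. That of Mef2a was lost without any 1 naive library or CpG replicate 2 or 3 (adjusted p = 0.0525 to 0.0733), and that of Map2k5 in 11 of 15 alternatives. The count of risers was 1 without naive replicate 2. Akt2 was the single riser at the second step (0.34, adjusted p = 0.0325), a call lost in 7 of 14 alternatives.

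Homing and subset genes that have been studied with Klf2 or Klf3 fell in most cases. Of 15 tested, 12 fell and 1 rose with CpG (median -1.63), 9 fell and 0 rose at the second step (median -1.84), and 10 fell and 1 rose overall (median -3.17). The riser was Cd69, whose protein retains lymphocytes by binding S1PR1, from 91.0 to 275 CPM on average with CpG (1.60, adjusted p = 6.00e-05), and it fell again at the second step, to 129 and 156 CPM (-0.95, adjusted p = 0.00276). Its call against naive was lost without TLR replicate 2 (adjusted p = 0.0889). S1pr1 itself, the egress receptor gene, averaged 402 ± 42.8, 110.3 ± 25.2, and 3.96 and 3.67 CPM in the 3 groups. It fell by 1.87 ± 0.17 with CpG (adjusted p = 3.27e-05) and by 4.85 ± 0.25 at the second step (adjusted p = 2.91e-06), beside -1.19 and -5.35 for Klf2.

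Fcer2a, which encodes the follicular B cell marker CD23, went further, from 1215 ± 185 to 63.8 ± 21.1 and then to 1.19 and 2.01 CPM. S1pr4 fell from 128 ± 3.31 to 65.3 ± 13.9 CPM with CpG (-0.97, adjusted p = 0.000730) and to 12.4 and 10.7 CPM at the second step (-2.50 ± 0.19, adjusted p = 1.51e-05). Cr2 (CD21), high on marginal zone B cells, fell with CpG, from 1413 ± 94.3 to 104 ± 39.5 CPM, and was not called at the second step, with 80.7 and 116 CPM in TLR libraries (adjusted p = 0.853). S1pr2 and Ccr7 were not called in any of the 3 comparisons. Klf2 loss in mouse B cells is known to change several of these genes, which is why they were listed. Whether Klf2 has a part in these levels was not tested.

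**Figure D5:**
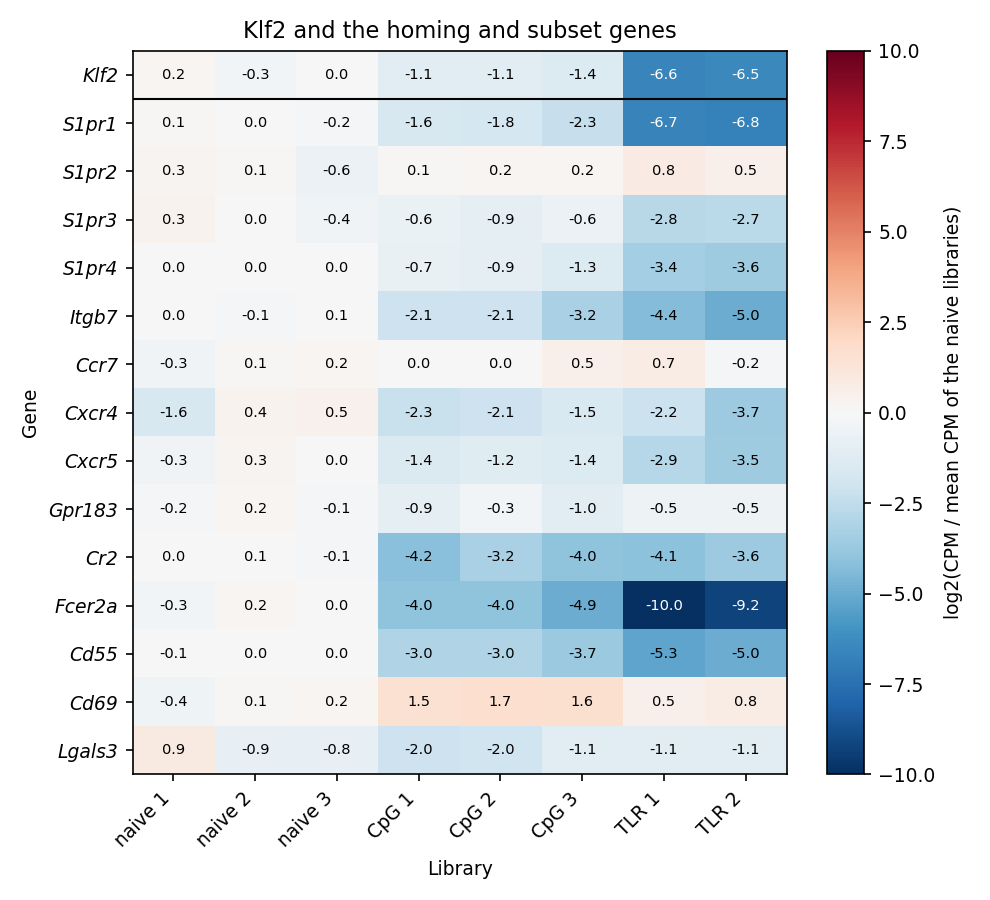
Log2 ratio of CPM in each library to the mean of the naive libraries, for Klf2 (top row) and 14 of the homing and subset genes, blue for lower and red for higher. The rows of S1pr1 and Klf2 end near the same depth in the TLR libraries, at -6.72 and -6.54 in the fit, Cr2 is already low with CpG, and Cd69 is higher in all CpG and TLR libraries.

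Other genes of lymphocyte quiescence fell in 12 of 25 cases with CpG and rose in 3 (median -0.36). At the second step 11 fell and 5 rose (median -0.33, with 3 risers without TLR replicate 1), and overall 17 fell and 4 rose (median -0.94). Tsc22d3, the glucocorticoid-induced leucine zipper gene, fell from 725 ± 307 to 90.0 ± 6.71 CPM with CpG, and Zfp36l2, an mRNA decay factor, from 456 ± 177 to 61.8 ± 7.43 CPM. Ets1, which restrains plasma cell differentiation, fell at both steps, from 1562 ± 328 to 599 ± 56.0 and then to 177 and 203 CPM. Btg2, an antiproliferative gene, was not called with CpG (adjusted p = 0.0599, and called in 8 of 15 alternatives) but fell from 383 ± 28.3 to 71.8 and 78.1 CPM at the second step (-2.35 ± 0.15, adjusted p = 7.21e-06). Slfn2, needed for T cell quiescence, rose from 322 ± 21.2 to 784 and 859 CPM there.

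Cell cycle genes reported as targets of Krüppel-like factors moved the other way with CpG. Of 16 tested, 14 rose (11 without naive replicate 1) and 2 fell (median 1.52). The list mixes genes that drive the cycle with genes that restrain it. Cdkn1a and Cdkn1c, which encode inhibitors, were among the risers, and the call of Cdkn1c was lost in 4 of 14 alternatives. E2f1 rose from 12.0 ± 1.21 to 58.5 ± 11.1 CPM (2.29 ± 0.16, adjusted p = 8.25e-06). At the second step 3 rose and 5 fell (median -0.25). Ccnd2, which encodes cyclin D2, rose from 525 ± 166 to 1969 and 1606 CPM, while Cdkn1b, the p27 inhibitor gene, fell from 188 ± 23.1 to 94.2 and 65.5 CPM. Myc rose from 124 ± 22.4 to 393 and 327 CPM.

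Partners and turnover factors of Krüppel-like proteins had no common direction, with 2 of 15 higher and 5 lower with CpG, and 4 higher and 3 lower at the second step (medians -0.17 and 0.27). With CpG the higher count was 0 without naive replicate 2 and the lower count 3 without naive replicate 1, and at the second step the higher count was 2 without TLR replicate 2 and the lower count 1 with only the common-prefix libraries. Fhl3, a LIM protein that binds Klf3, rose from 22.1 ± 8.52 to 54.9 and 48.5 CPM at the second step (1.23 ± 0.27, adjusted p = 0.00562), a call lost with only the common-prefix libraries (adjusted p = 0.0898). Hdac3, a corepressor deacetylase gene, rose from 101 ± 1.27 to 139 and 156 CPM. In the TGF-beta list, the setting in which Klf10 and Klf11 were found, 1 of 13 tested genes rose and 5 fell with CpG, and 0 rose and 3 fell at the second step (medians -0.19 and -0.15). The 5 became 3 without naive replicate 2, and the 3 became 1 with only the common-prefix libraries. The 3 of 13 lower here and the 3 of 15 partners lower at the second step are near the 19.8% of all tested genes. Ski, a repressor of SMAD signals, fell from 110.5 ± 4.62 to 34.4 ± 3.45 CPM with CpG, and the receptor gene Tgfbr2 fell from 427 ± 44.6 to 137 and 117 CPM at the second step.

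Immediate early genes are a class that PMA and ionomycin are known to induce, and which agent acted in the TLR group was not tested. With CpG 3 of 24 rose and 9 fell (median -0.31, with 1 riser without CpG replicate 3), and at the second step 13 rose and 1, Btg2, fell (median 1.54). Nr4a1 rose from 50.5 ± 11.2 to 202 and 167 CPM (1.87 ± 0.18, adjusted p = 5.12e-05) and Egr2 from 17.5 ± 2.21 to 50.8 and 58.2 CPM (1.64 ± 0.17). Klf6 and Klf10, which are also known as early-response genes, were lower or not called at that step. In TLR against naive, 14 of the 24 were higher and 7 lower (median 0.86). Fos held 187, 53.5 and 259 CPM in naive libraries and 5.44 and 13.0 CPM in TLR libraries.

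Among transcripts of the 9 genes, 5 held the AU-rich letters TATTTAT after the stop codon (Klf2, Klf6, Klf7, Klf10 and Klf11), against 27.5% of 20965 genes. That share is not matched for length: 8 of the 9 had more bases after the stop codon than the median gene (982 to 6266, against 937), and Klf2 had 737. The longer form TTATTTATT was in 0 of the 9, against 7.58% of genes. Such letters are known from short-lived mRNAs. They are shown in capitals within 27 bases for 2 genes that fell strongly at the second step, Klf2 and Klf11, and for Klf10, which was not called.
Klf2: aacagactgcTATTTATtggaccttag
Klf11: tttataaaaaTATTTATattgtgctca
Klf10: agtgtcttttTATTTATaggagttttt

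These sites began 80, 459 and 968 bases after the stop codon in the longest coding transcript of GENCODE M21. At the second step Klf2, Klf11 and Klf6, with 1, 1 and 2 such sites, fell 40.8-fold, 5.96-fold and 2.04-fold. Klf3, with 0, fell 5.79-fold, and Klf7, with 1, rose 1.48-fold. Klf10, with 1, and Klf4, Klf9 and Klf13, with 0, were not called. No link between sites and changes was tested, and mRNA stability was not measured.

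The genes whose log2 CPM ran most closely with each of the 9 over the 8 libraries were sought among 9015 others with a mean of at least 8 CPM. For Klf2 they were Smim14 (Pearson r = 0.998), Tmem163 (0.997) and Ctns (0.996), and Smim14 went from 391 to 245 to 39.4 CPM on average. For Klf3 they were Wdr44, Aff3 and Ankrd44 (0.998 to 0.996), with Aff3 at 233, 79.2 and 6.36 CPM. Zfp652 was closest to Klf6 (0.999), at 161, 45.1 and 21.8 CPM, followed by Arhgap9 and Emid1. Plaur, which encodes the urokinase receptor, was closest to Klf4 (0.991), at 92.2, 4.53 and 7.40 CPM, and H2-Q5 to Klf13 (0.993). For Klf11 it was Pou2af1 (0.978), which encodes the B cell coactivator OCA-B and stood at 839, 1029 and 235 CPM. Mphosph9 was closest to Klf7 (0.983), Ero1l to Klf9 (0.981) and Ddx3x to Klf10 (0.969). The 8 points of each pair share their libraries and fall into 3 groups, and r is given only as a description.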

How the data were processed

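Per the labels' protocols, polyA RNA was turned into libraries with a kit that keeps strand. STAR, HTSeq, edgeR and build mm9 are named in the submitters' processing notes, without versions. The sources used here do not give the annotation release. The authors deposited whole-number counts per gene, and the file names say that strand was ignored. Of 37583 identifiers, 32860 matched a symbol of GENCODE M21, and 5 summary lines per file were left out.

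These counts went into edgeR 4.0.16 under R 4.3.3: filterByExpr (13964 genes), TMM, a quasi-likelihood fit over all 8 libraries with 1 mean per group, and Benjamini-Hochberg adjustment over all tested genes, called at an adjusted p below 0.05. The prior count for fold changes was 0.125, and SE was taken from the size of the log2 fold change and the F statistic. Intervals are at 95%, not adjusted for the number of genes. CPM used the same factors, and CPM per kb used all exon bases of GENCODE M21. Calls were tested on simulated data with known changes. Libraries of 1 group differed by more than counting noise.

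The 9 genes and all lists were chosen with earlier results of these data known. Genes named from a list came from the up to 4 called genes with the smallest p in each comparison (2 if none was called), and 3 neighbours by Pearson r were sought for each of the 9. Fewer are named where a list is only counted, and other names were chosen after their values were seen. The test between steps and the transcript-length alternative were also chosen after the data were seen. Alternatives were DESeq2 1.42.0, scaling by RLE or by library size, no filter or one at 1 CPM on average, a fit without the group not compared, a replicate block, a prefix term, dropping the replicate 1 libraries, and leaving out each library.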

Additional observations from a re-analysis of the deposited data

How the results depend on the processing

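Of the 27 log2 fold changes of the 9 genes, 18 were called, and 15 of these were called in every alternative (each change of Klf2, Klf3, Klf6, the called ones of Klf4, Klf11 and Klf13). Of 387 values under the alternatives, 371 kept direction and call, 8 lost the call and 8, none of them called, turned sign. The 8 lost calls were those of Klf7 with CpG, Klf7 at the second step and Klf9 over both steps. The number of genes called higher at the second step was 1, and 0 with only the 2 groups compared or only the libraries with the common prefix, and 0 to 1 with a library left out. The number called higher in TLR against naive was 1, and 0 with only the libraries with the common prefix, and 0 to 1 with a library left out. The cause was not tested.

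The turned signs came on leaving out libraries. Klf11 with CpG (0.16) ranged from -0.050 without naive replicate 1 (-0.047 without CpG replicate 2) to 0.53. Klf10 with CpG (-0.33) ranged from -0.59 to 0.046 without CpG replicate 1. Klf10 at the second step (0.12) ranged from -0.25 without CpG replicate 1 (-0.24 without TLR replicate 2) to 0.40. Klf7 against naive (-0.053) ranged from -0.33 to 0.19 without TLR replicate 2 (0.017 without naive replicate 1). Klf10 against naive (-0.22) ranged from -0.57 to 0.073 without TLR replicate 1. Between steps, Klf9 (0.26) was -0.20 with only the common-prefix libraries and ranged from -0.030 without CpG replicate 1 to 0.60, and Klf10 (0.45) from -0.30 without CpG replicate 1 to 0.97. Of 7 called differences between steps, those of Klf2, Klf3, Klf4 and Klf11 were called in all 16 alternatives, Klf6 and Klf7 in 13 and Klf13 in 10.

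With the replicate number as a block, Klf2 changed by -1.19 and -5.39 at the 2 steps, and no call of the 9 genes changed. Deviations of same-numbered libraries correlated at 0.160, 0.104 and 0.0037 between naive and CpG, at 0.135 and 0.037 between naive and TLR, and at 0.313 and 0.273 between CpG and TLR, and naive replicate 3 correlated best with CpG replicate 2 (0.150). Not every pair exceeded 0.1, and the main fit did not pair the libraries. These values cannot decide whether the numbers pair them. With only 2 TLR libraries, values for one mirror those for the other (0.313 and -0.313 for CpG replicate 1), and replicate 1 libraries also share a name prefix. Scaling moved the median of all genes by at most 0.057 in size (log2). Klf4 with CpG rested on 6 to 18 counts per library, where depth limits the size of the change.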
